A study of Mus musculus with 2 samples.

Results

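The intermediate VH domain of the mouse immunoglobulin heavy chain (Igh) locus was described here by its contacts in 5C. The domain was taken as the assayed fragments of chromosome 12 (mm9) whose midpoint lies at or above 115160000 and below 115725000, an approximate interval for the intermediate VH gene families. It held 44 of the 206 assayed fragments, 20 read with forward primers (F) and 24 with reverse primers (R), which ran from chr12:115209244-115724782. A member was any forward and reverse primer pair with at least 1 end in the domain, pairs with no count included, and there were 4032 members of 10584 assayed pairs (38.1%). The borders are positions and use no measured value.

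The cells were CD43-negative B cells, isolated with magnetic beads from the spleen of C57Bl/6 mice and left unstimulated (resting). The 2 libraries, biological replicates in the design text, form 1 group, with no other genotype, treatment or time. In 5C, fixed chromatin is cut (here with HindIII) and ligated, and the junctions of chosen fragments are copied with primers and sequenced. The count of a primer pair therefore follows how often its fragments were joined, and also how well each primer worked. No gene expression was measured, so the labelled cell type could not be set against its markers.

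The Igh locus is assembled in developing B cells by joining a D segment to a JH segment and then a VH segment to both. Textbook accounts divide the VH genes into a proximal group nearest the D segments, an intermediate group of many small families, and a distal group made mainly of the large J558 (Ighv1) family, and describe a contraction of the locus that brings far VH genes near the D and JH segments. Emu is the enhancer between JH and Ighm, the 3′ regulatory region is a cluster of enhancers beyond the last constant gene, and IGCR1 is an insulating element between the VH and D segments. Mature B cells carry joined alleles from which the DNA between the joined segments has been removed, whereas all distances here are those of the reference assembly.

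Gene order in the RefSeq table of assembly GRCm38 was used for the family names, with no coordinates and with no fragment assigned to a gene. It listed 183 VH entries in 16 families. Ighv5 and Ighv2 opened the order at the D end, and Ighv1 and Ighv8 filled the far end. The other 12 families held 43 entries, 12 of them pseudogenes, and 42 of the 43 came after the last Ighv2 entry. The families interleave. Ighv5 ran to rank 62 of the order, Ighv8 and Ighv1 began at ranks 64 and 65, and Ighv15 reached rank 85. The stretch after the last Ighv2 entry, which the term intermediate stands for, thus also holds Ighv5, Ighv8 and Ighv1 entries.

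The members were shallow pairs in deep libraries. Replicate 1 held 16067416 counts in all and 1524328 (9.49%) in the members, and replicate 2 held 15096402 and 1382831 (9.16%). The median member had 80.5 counts in replicate 1 and 73 in replicate 2, against 105 and 95 over all assayed pairs. In replicate 1, 67 members were at 0, in replicate 2 103 were, and 30 were at 0 in both. The 14 members whose fragments share a HindIII site, where uncut or rejoined chromatin cannot be separated from contacts, held 37.7% and 36.1% of the member counts.

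To take out the decay of counts with distance, each count was compared with the count expected at its distance in that library. The z of a pair is its excess over that expected count in units of the local spread. A pair was called when its z was 2 or more in both libraries, which applies the design text's criterion of detection in both replicates. With 2 libraries of 1 group, the exact two-sided sign-flip permutation test over libraries cannot give a p below 0.5. No difference below is therefore called significant, and shares called are read against the share of all assayed pairs.

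On uncorrected counts, every called pair of the domain had its other end outside it. Of the 4032 members, 54 were called (1.34%), where 1.45% of all assayed pairs were called and 1.51% of the pairs that are not members. Of the 54, 36 joined the domain to the constant end of the locus (the stretch from the 3′ flank to the D segments), 15 to distal VH fragments and 3 to proximal VH fragments. None joined a pair of fragments of the domain, and none reached the 5′ flank beyond the VH genes. The multiple of the expected count that gives a z of 2 differed with distance. At 40.8 kb, within the domain, F346-R357 had a z of 1.996 at 13.0 times expected in replicate 2. At 919 kb F329-R83 was called at 3.88 and 4.20 times. Median distances were 139 kb within the domain and 993 kb to the constant end, so these numbers of calls do not compare like multiples. The called pairs spanned 447 to 1229 kb with a median of 847 kb, close to the 884 kb median of all members, and 42 of them lay between 500 kb and 1 Mb.

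**Figure D1:**
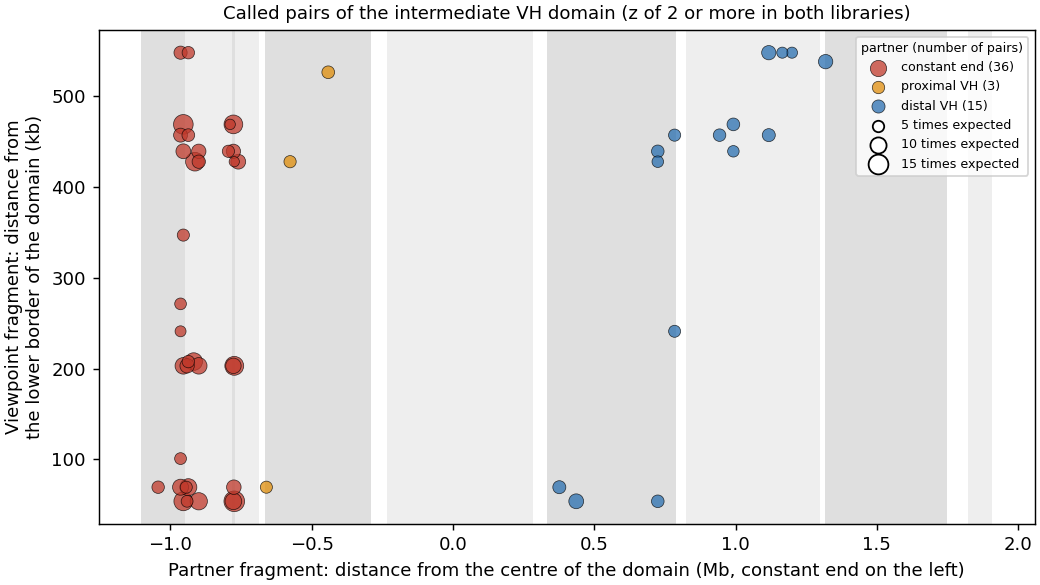
Each point is 1 of the 54 called pairs, placed by the distance of its partner fragment from the centre of the domain (x, Mb, constant end on the left) and of its fragment in the domain from the domain's lower border (y, kb). Colour gives the partner (36 constant end, 3 proximal VH, 15 distal VH), point area grows with the mean count over the expected count, and grey bands are the partner regions. No point falls in the band of the domain itself, and the points stack on few partner positions at the left.

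Each library alone had more pairs past the threshold. In replicate 1, 84 members passed a z of 2, and in replicate 2, 82 did. By partner they numbered 54 and 58 for the constant end, 24 and 19 for the distal stretches, 5 and 4 for the proximal group and 1 and 1 within the domain. The called pairs carried 499 counts or more in each library, and 3.88 to 18.4 times the expected count, with a median of 6.51 times. Their counts differed between the libraries by a median of 1.22-fold after scaling for depth and by 2.29-fold at most. Just inside the threshold stood F611-R339 (z of 5.67 and 2.02), F415-R235 (2.02 and 4.09) and F329-R83 (2.03 and 2.21). Just outside stood F346-R357 (2.51 and 1.996), F272-R55 (1.97 and 2.28) and F661-R370 (1.96 and 2.22). Over members, which share fragments and are not replicates, Spearman's rho between the libraries was 0.90 for counts and 0.86 for z.

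On uncorrected counts, the constant end took the most calls of the domain for its number of pairs. The constant end comprised 63 fragments in chr12:114339456-114755042 (mm9). On uncorrected counts, 36 of its 1388 pairs with the domain were called (2.59%), against 1.98% of all assayed pairs that touch the constant end. With primer effects removed and rescaled, 20 of the 1388 were called (of 42 members), and after iterative correction 18 (of 41). Both are near the shares of all assayed pairs under these settings, 1.19% and 1.23%. The constant-end pairs held 15.7% ± 1.14 (SD, n = 2) of the member counts. Their median count was 0.622 of the expected count in replicate 1 and 0.645 in replicate 2, above the medians over all assayed pairs of 0.441 and 0.422. The expected count is a mean, and the medians of all partner regions lie below it. In replicate 1, 35.8% of the constant-end pairs were above the expected count, and in replicate 2 35.0%, against 27.3% and 26.5% of all assayed pairs.

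Within the constant end, the calls on uncorrected counts were spread over the 3′ flank and 3′ regulatory region, the constant genes and Emu and JH. They were nearly absent from the D segments. Of 552 pairs with the 3′ flank and 3′ regulatory region (chr12:114339456-114493851), 12 were called (2.17%). Of all assayed pairs that touch this region, 2.19% were called. Of 552 pairs with the constant genes (chr12:114493852-114662158), which encode the antibody classes, 15 were called (2.72%). The share over all assayed pairs that touch the constant genes was 1.82%. The constant genes had the highest median level of any partner region, 0.834 of the expected count in replicate 1 and 0.840 in replicate 2. Of 152 pairs with the D cluster and IGCR1 (chr12:114672759-114755042), 1 was called (0.658%), and the median there was 0.245 and 0.257 of the expected count. The standing of the D cluster depended on how primer effects were treated. Its mean z was -0.27 on counts, and 0.15 on the log2(count + 1) scale with additive effects removed. After rescaling, 7 of its 152 pairs were called (4.61%). After iterative correction its mean z was -0.099, against -0.0088 over all assayed pairs, and 3 pairs were called (1.97%). The additive correction takes out the mean level that a fragment has over all its pairs. Iterative correction makes the summed counts of each primer equal, so it depends also on the counts of a fragment's near pairs. Neither can separate a weak primer from a fragment with few contacts everywhere. Of all 704 assayed pairs that touch the D cluster and IGCR1, 1 was called.

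Emu and JH (chr12:114662159-114672758, 6 fragments) had the largest share called of any partner region, 8 of 132 pairs (6.06%). Their median level, 0.493 and 0.547 of the expected count, lay between those of the constant genes and of the D cluster. Over all assayed pairs that touch Emu and JH, 24 of 609 were called (3.94%), also the largest share of any region. This rank rests on uncorrected counts. With primer effects removed and rescaled, 4 of the 132 pairs were called (3.03%), fewer in proportion than for the D cluster and IGCR1, and after iterative correction none was. On the uncorrected counts the calls came from few fragments. Fragment R81 (chr12:114664824-114667095) held 4 of the 8, with 74 to 2181 counts and a median of 392.5 over its 20 pairs with the domain in replicate 1, and 132 to 2068 with a median of 415 in replicate 2. R83 (chr12:114667887-114670119) held 3, with medians of 193.5 and 266.5 counts. F82 held 1 and the other 3 fragments, F80, F84 and R79, held none. The files do not say which of these fragments holds the Emu core, so none is named as Emu.

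**Figure D2:**
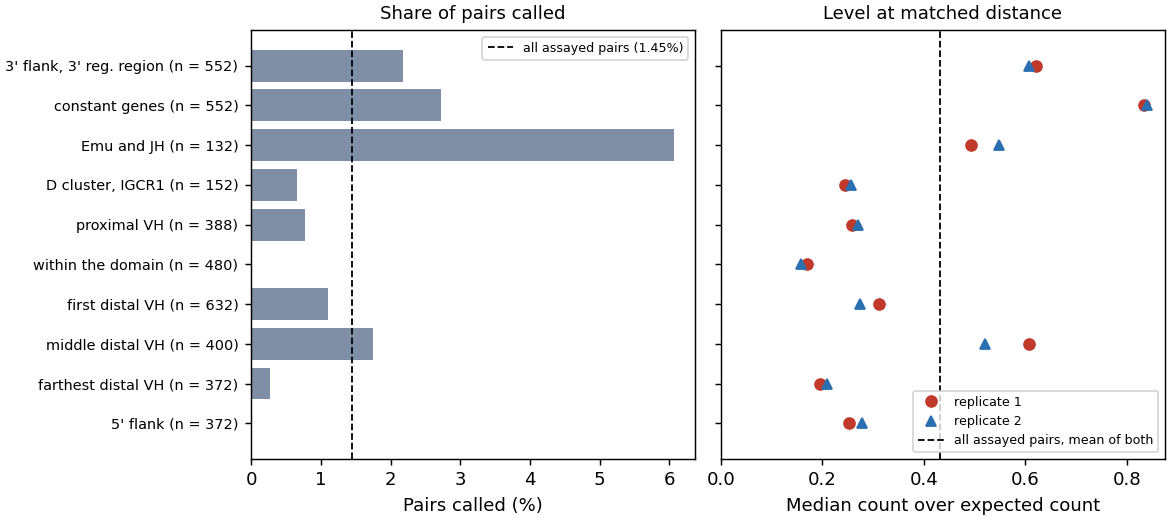
Left, the share of the domain's pairs called (%) for each partner region, with the number of pairs in brackets and the 1.45% of all assayed pairs as a dashed line. Right, the median count over the expected count in replicate 1 (circles) and replicate 2 (triangles), with the mean over both libraries for all assayed pairs dashed. Emu and JH lead on the left with 6.06%, the constant genes lead on the right with 0.834 and 0.840, and pairs within the domain, none of them called, have the lowest level. Of all assayed pairs that touch Emu and JH, 3.94% were called.

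The strongest called pairs of the domain all had their partner in the constant end, which held each of the 12 with the highest mean z. F233-R83 joined the fragment F233 near the lower border of the domain to the Emu and JH region 545 kb away, with 2971 counts in replicate 1 and 3499 in replicate 2, or 16.3 ± 2.98 (SD, n = 2) times the expected count. F272-R83 had 2207 and 2245 counts at 694 kb, 13.7 ± 0.89 times expected. F346-R81 had the highest mean z (8.43), with 2137 and 1361 counts at 963 kb and 13.4 ± 3.80 times expected. All 3 pairs were high in both libraries, and F346-R81 differed most between them.

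Towards the 3′ flank and 3′ regulatory region, the fragment R33 (chr12:114486613-114491122) recurred. F233-R33 had 1682 and 2517 counts at 725 kb, 13.7 ± 4.51 times expected. F346-R33 had 1975 and 2148 counts at 1140 kb, 14.8 ± 1.28 times expected, and F272-R33 had 1544 and 1325 counts at 874 kb, 10.6 ± 0.81 times expected (mean z 6.50). F31-R235, with F31 at chr12:114477117-114480873, had 1398 and 1552 counts at 750 kb, 9.81 ± 1.19 times expected. The 4 pairs spanned different distances, and the longest, F346-R33, had the highest count over expected. R33 was also high outside the domain, with medians of 2.92 and 3.18 times expected there against 3.67 and 3.76 with the domain. After iterative correction the mean z was -0.37 for F346-R33, -0.12 for F272-R33, 0.18 for F233-R33 and 0.66 for F31-R235.

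In the constant genes, F38-R235 had 1723 and 1735 counts at 723 kb, 11.1 ± 0.63 times expected. F233-R44 had 2057 and 1830 counts (11.4 ± 0.32 times) and F272-R44 had 1396 and 1593 (10.5 ± 1.30 times). F329-R41 had 1914 and 1687 counts at 1058 kb, 13.4 ± 0.84 times expected, and F40-R274 had 1368 and 1946 at 842 kb, 11.9 ± 3.27 times. These 5 pairs used 4 different partner fragments of the constant genes and 5 different fragments of the domain. The single call to the D cluster and IGCR1, F329-R90, had 1359 and 881 counts at 905 kb, 8.41 ± 2.28 times expected.

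Pairs inside the domain held most of its counts and, on uncorrected counts, none of its calls. The 480 pairs with both ends in the domain held 64.6% ± 0.674 (SD, n = 2) of the member counts, at a median distance of 139 kb. Relative to the count expected at their distance they had the lowest median of the partner regions, 0.170 of the expected count in replicate 1 and 0.158 in replicate 2, and 8.75% and 8.13% of them were above it. By mean z they were not the lowest, at -0.18 over both libraries, against -0.27 for the D cluster and IGCR1 and -0.19 for the proximal VH group. None of the 480 was called. A count of 0 would allow a share of up to 0.625% (3 pairs) if pairs were independent. They are not, because they share fragments. Of all assayed pairs no farther apart than the width of the domain, 1.4% were called. The absence of calls did not hold with primer effects treated. With these effects removed and rescaled 6 of the 480 were called (1.25%), and after iterative correction 5 (1.04%). Of all assayed pairs 1.19% and 1.23% were called under these settings.

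On uncorrected counts, pairs within the domain were lower than pairs with neither end in it at every distance compared. These other pairs include those of the constant end. Without pairs that share a HindIII site, the 82 pairs of the domain 50 to 100 kb apart had a median of 214.5 counts in replicate 1 and 165 in replicate 2, and the 258 pairs elsewhere with neither end in the domain had 663.5 and 585.5. From 100 to 200 kb the medians were 165 and 142 against 444 and 382, and from 200 to 400 kb 91.5 and 78.5 against 209 and 183. Under 20 kb they were 1911 and 1301 against 2732 and 2266. In all 6 distance classes the domain was below the rest in both libraries, with the smallest gap from 400 to 600 kb (87.5 and 84.5 counts against 121 and 111, over 30 pairs of the domain).

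**Figure D3:**
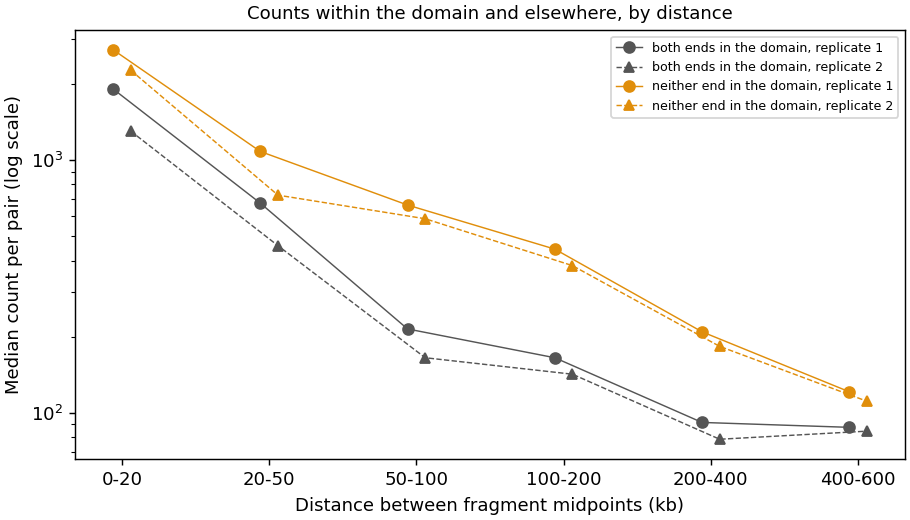
Median uncorrected count per pair (y, log scale) in 6 classes of distance between fragment midpoints (x, kb), for pairs with both ends in the domain (grey) and pairs with neither end in it (orange), in replicate 1 (circles) and replicate 2 (triangles). Pairs that share a HindIII site are left out, and the domain lies below the rest in every class and library, most clearly from 50 to 200 kb.

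Set against its neighbours, the domain was lower than the proximal VH group and close to the first distal VH stretch. From 20 to 400 kb apart, 395 pairs within the domain had a mean z that was lower by 0.09 ± 0.0027 (SD, n = 2; difference of -0.09) than that of 71 pairs within the proximal group, whose medians were 0.243 and 0.220 of the expected count against 0.177 and 0.163. Against 148 pairs within the first distal stretch the difference was -0.05 ± 0.011. The medians there, 0.175 and 0.137 of the expected count, were not above those of the domain in either library. This difference was above 0 on the log2 scale and with primer effects removed. Of these comparison pairs, 1 was called in each neighbour, where 1.29% of all pairs 20 to 400 kb apart were called.

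2 pairs inside the domain stood well above the others without being called. F346-R357, 40.8 kb apart, had 61837 and 44108 counts, 14.4 ± 2.08 (SD, n = 2) times the expected count, and missed the threshold in replicate 2 by less than 0.01 of z. F306-R312, 20.4 kb apart, had 60883 and 113546 counts, 8.57 ± 4.18 times expected, with z of 1.11 and 2.43. Farther apart, F233-R339 had 1031 and 1008 counts at 404 kb, 4.07 ± 0.23 times expected, and joined fragments near the lower and upper parts of the domain that both made calls elsewhere. F346-R357 and F233-R339 are named here after their values were seen.

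Contacts with the proximal VH group (chr12:114778143-115152740, 18 fragments) were few. Of 388 pairs 3 were called (0.773%), and the median was 0.258 and 0.270 of the expected count. Of all assayed pairs that touch the proximal group, 1.25% were called. The 388 pairs held 3.76% ± 0.0417 (SD, n = 2) of the member counts. The called pair with the highest mean z, F364-R171, had 1207 and 855 counts at 685 kb, 6.19 ± 1.17 times expected. The other 2 were F329-R137, with 932 and 859 counts, and F115-R235, with 1330 and 1225 counts at 447 kb.

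The neighbours on both sides of the domain were met about equally at matched distance. From 100 to 500 kb, the mean z of 121 pairs with the proximal group was higher than that of 376 pairs with the first distal stretch by 0.04 ± 0.0001 (SD, n = 2). Of the former 1 was called and of the latter none of 376, which would allow a share of up to 0.798% if pairs were independent. The difference stayed under 0.1 under every setting but the log2 scale (0.22), and it was -0.0031 with the primer effects removed and rescaled.

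Distal VH fragments (chr12:115774724-117190694, 64 fragments) took 15 calls in 1404 pairs (1.07%). The first stretch (chr12:115774724-116231679) had 7 in 632 pairs (1.11%), the middle stretch (chr12:116268138-116742143) 7 in 400 (1.75%) and the farthest stretch (chr12:116760227-117190694) 1 in 372 (0.269%). Of all assayed pairs that touch these stretches, 1.48%, 1.74% and 0.538% were called. The middle stretch, though farther away than the first, had the higher level for its distance, at 0.607 and 0.521 of the expected count against 0.311 and 0.275. The farthest stretch was low again, at 0.196 and 0.208.

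Distal calls were weaker than the leading constant-end calls. F233-R435, the strongest in the first stretch, had 1345 and 1543 counts at 665 kb, 8.45 ± 1.28 (SD, n = 2) times expected. F611-R374 in the middle stretch had 1337 and 843 at 852 kb, 7.83 ± 2.29 times, and F369-R668, the 1 call to the farthest stretch, had 1081 and 1047 at 1063 kb, 7.91 ± 0.03 times. After scaling for depth, 6 of the 7 calls to the middle stretch were higher in replicate 1, against 1 of the 7 to the first stretch and 10 of the 36 to the constant end.

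At matched distance the constant end was met slightly more than the distal VH stretch. From 500 kb to 1 Mb, the mean z of 705 constant-end pairs exceeded that of 461 distal pairs by 0.103 in replicate 1 and 0.218 in replicate 2, 0.16 ± 0.081 (SD, n = 2). The shares called lay closer, 26 pairs (3.69%) and 14 pairs (3.04%), where 2.48% of all pairs at this distance were called. After iterative correction over primers the difference of mean z turned to -0.097, so its direction depends on how primer effects are treated. Beyond the VH genes, none of the 372 pairs with the 5′ flank (chr12:117265258-117350186) was called, which would allow up to 0.806% if pairs were independent. These pairs held 2.11% ± 0.226 of the member counts.

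The share of constant-end pairs called was like that of the neighbouring VH regions over all distances, but below the first distal stretch from 1 to 1.5 Mb. Over all distances it was 2.64% for the proximal group (15 of 569), 2.59% for the domain and 2.30% for the first distal stretch (21 of 915). It was 1.94% for the middle stretch (11 of 566) and 0 of 536 for the farthest, up to 0.560% if pairs were independent. From 500 kb to 1 Mb the proximal group had 6 of 163 (3.68%) and the domain 26 of 705 (3.69%). From 1 to 1.5 Mb the domain had 10 of 678 (1.47%) and the first distal stretch 19 of 627 (3.03%), where 1.46% of all pairs were called. With Emu and JH the calls were 0 of 54 pairs for the proximal group (up to 5.56% if pairs were independent) and 8 of 132 (6.06%) for the domain. They were 4 of 87 (4.60%) for the first distal stretch and 3 of 54 (5.56%) for the middle stretch. The regions share these 6 Emu and JH fragments and differ in distance, so no order among them is drawn.

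Few fragments of the domain made the calls. Of its 44 fragments 15 had a called pair, and 6 held 36 of the 54 calls (66.7%). F233 (chr12:115211655-115215965) and R235 (chr12:115225314-115233376), neighbours near the lower border, had 7 each. F272 (chr12:115362252-115363989) had 5, all to the constant end. F329 (chr12:115586578-115589686) and F334 (chr12:115594002-115605173) had 6 each, and R339 (chr12:115616163-115618624) had 5, of which 3 went to distal VH fragments. Outside these 6, R374 also had 5 and F346 had 4.

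Fragments with calls were also those with high counts over all their pairs. The median count over expected count per fragment ran from 0.246 to 1.41 with a median of 0.742 for the 15 fragments with a call in replicate 1, and from 0.027 to 0.653 with a median of 0.206 for the 29 without. In replicate 2 the ranges were 0.249 to 1.36 (median 0.733) and 0.016 to 0.608 (median 0.214). The groups of fragments overlap, and R274 had 2 calls at a median level of 0.246 and 0.249. Fragments with calls were longer, with a median of 3109 against 2374 bases. Fragments that are better recovered and fragments with more contacts everywhere cannot be told apart from these values.

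**Figure D4:**
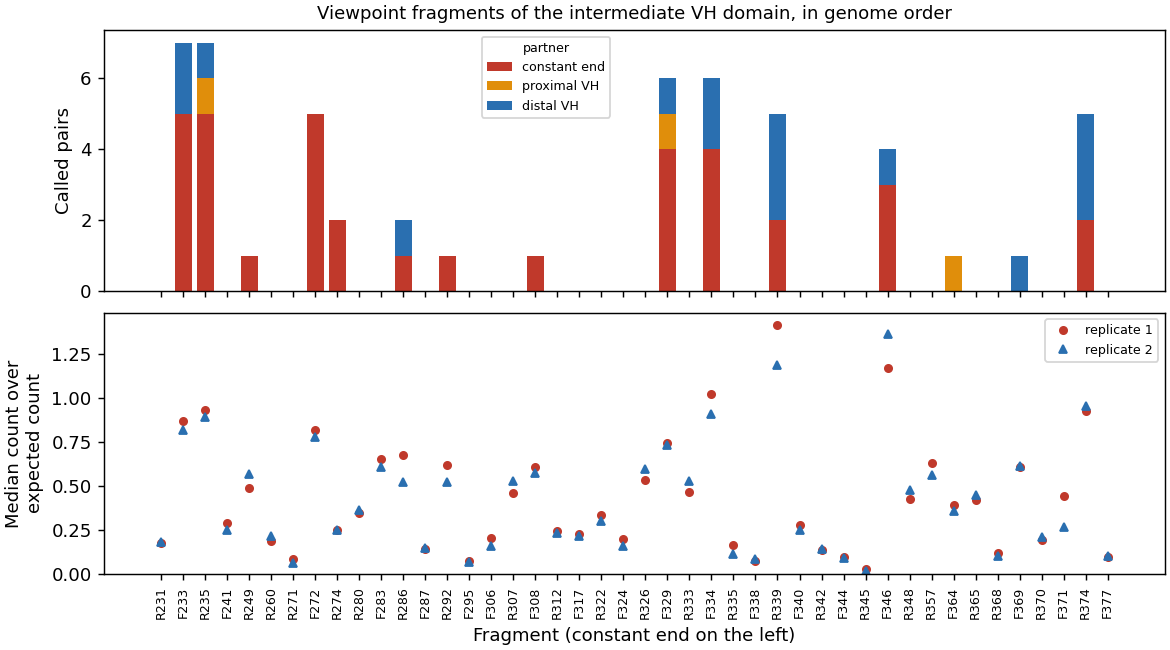
Top, called pairs per fragment of the domain, in genome order with the constant end on the left, coloured by partner. Bottom, each fragment's median count over the expected count in replicate 1 (circles) and replicate 2 (triangles). Most calls sit at F233, R235, F272, R274, F329, F334, R339, F346 and R374, and most of these fragments are high in the lower panel in both libraries. Between F329 and F346, the fragments other than F334 and R339 have no call. R249, R286, R292, F308, F364 and F369 have 1 or 2 calls each.

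Calls were not confined to the border nearest the constant end. The widest stretch of the domain without an assayed fragment, 65.6 kb (chr12:115262224-115327864), divides it into 5 fragments on the constant side and 39 beyond. The 5 held 15 calls, on 3 fragments, and the 39 held 39 calls, on 12 fragments. Of the constant-end calls 11 came from the 5 and 25 from the 39, in 158 and 1230 pairs (6.96% and 2.03% called) at median distances of 702 and 1022 kb. Assayed fragments do not cover the domain evenly.

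The partners were few as well. The 54 calls used 28 partner fragments, 15 of them in the constant end and 10 in the distal stretches. F31 and R33 in the 3′ flank and 3′ regulatory region, F38 and R44 in the constant genes and R81 and R83 at Emu and JH led. They held 26 of the 36 constant-end calls (72.2%). Some of them were called often outside the domain too. F31 was called in 25.0% of its pairs with the domain (6 of 24) and 13.1% of its other pairs (11 of 84), and R33 in 25.0% (5 of 20) and 20.5% (16 of 78).

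For some other partners, picked for their calls with the domain, the share called there was several times that of their other pairs. F38, in the constant genes, was called in 4 of 24 pairs with the domain (16.7%) and 3 of 84 others (3.57%), and R44 in 4 of 20 (20%) and 5 of 78 (6.41%). R83 was called in 3 of 20 (15.0%) and 3 of 78 (3.85%). Its neighbour R81 was called in 4 of 20 (20%) and 12 of 78 (15.4%). R37 (chr12:114501531-114502799) and R571 (chr12:116433753-116436207) had 2 calls each, both with the domain and none in their 78 other pairs. These counts are small, other pairs of a fragment lie at other distances, and the differences were not tested. Partners were listed only if they had a call with the domain, which raises their share there by selection. The median count over expected of F38 was 2.17 with the domain and 2.37 elsewhere in replicate 1, and 2.70 and 2.33 in replicate 2. For R44 it was 2.55 and 2.33, then 2.68 and 2.23. For R83 it was 1.40 and 0.784, then 2.01 and 0.944, and R37 and R571 were also higher with the domain.

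Much of the height of the called pairs was shared with the other pairs of their fragments. When additive effects of each primer were taken out of z on the log2(count + 1) scale (fragment-corrected z), 46 of the 54 called pairs stayed above 0 in both libraries, but none reached 2. After iterative correction 28 of the 54 were above 0 in both libraries. The corrected values have a smaller spread, with an SD of 0.489 and 0.503 over all pairs, so 2 is a stricter threshold there, and 0.17% of all assayed pairs passed it. Rescaled to unit spread at each distance, 42 members passed (1.19% of all assayed pairs did), 7 of them among the 54. These were F233-R83, F272-R83, F40-R274, F82-R235, F329-R90, F364-R171 and F369-R668. After iterative correction 41 members were called (1.23% of all assayed pairs), again 7 of them among the 54, and on the log2 scale 15 were (0.671%), 13 of them among the 54.

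2 members passed a fragment-corrected z of 2 in both libraries without rescaling, and both were short. F306-R312 within the domain, with the counts given above, had corrected z of 3.03 and 3.25. F377-R398, across the upper border of the domain into the first distal stretch and 51.6 kb apart, had 12742 and 12819 counts, 4.61 ± 0.48 (SD, n = 2) times expected, and corrected z of 2.25 and 2.23. After this additive correction the mean over constant-end pairs was 0.070 and over pairs within the domain -0.079. After iterative correction the order was turned, with a mean of -0.12 over constant-end pairs and -0.064 over pairs within the domain.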

How the data were processed

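The deposited values are whole-number counts of ligation products, 1 per pair of a forward and a reverse primer, in my5C matrices whose making included a step named transpurge, per the file headers. Novoalign and mm9 are named per the submitters' processing notes, while their versions and settings were not given in the sources used here. Pairs of the gene desert were not analysed here. No molecular identifiers are stated for the counts. The limits given for a count of 0 are 3 over the number of pairs. They treat pairs as independent, although pairs share fragments, and do not cover error in the read counts.

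The expected count came from LOWESS of the count on log10 midpoint distance over all 10584 pairs of each library, zeros included (span 0.2, no robustness steps, statsmodels 0.14.6). The residual over the root of the smoothed squared residual gave z. The functions were tested on simulated data. Partner regions have approximate mm9 borders. Fragment-corrected z used a pseudocount of 1, and iterative correction used 100 rounds without pairs that share a HindIII site. Values are means ± SD of the 2 libraries, and may reflect technical as well as biological spread.

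Named pairs were the 12 called with the highest mean z, the highest called pair of each partner region, and members with fragment-corrected z of 2 in both libraries. Named fragments were the 6 with the most calls, ties by mean z. Other pairs and fragments were named after their values were seen. Members, regions and lists were chosen with earlier results of these data known, and the rescaled correction after seeing the data. The alternatives were other thresholds, spans, scales, corrections, low-count filters, borders shifted inward by 50 kb, and each library alone.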

Additional observations from a re-analysis of the deposited data

How the results depend on the processing

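No paired analysis was possible because there was 1 group, and no setting has a test. The number of called members was 54. It was 91 at a z of 1.5, 22 at a z of 3, 15 on the log2 scale (13 of them among the 54) and 2 with additive primer effects removed, and each library alone gave 82 to 84. The other settings gave 41 to 66, and of the 42 after rescaling and the 41 after iterative correction, 7 and 7 were among the 54. Calls to the constant end (36) numbered 60 at a z of 1.5, 17 at a z of 3, 13 on the log2 scale, 0 with additive effects removed, 20 rescaled (5 of them among the 36), 18 after iterative correction (4 among the 36) and 54 to 58 with each library alone. Calls within the domain (0) numbered 1 at a z of 1.5, 1 at a span of 0.1, 2 on the log2 scale, 1 with additive effects removed, 6 rescaled, 5 after iterative correction, 1 without pairs that share a HindIII site (F346-R357) and 1 with each library alone. Calls to the proximal group (3) numbered 7 at a z of 1.5, 0 at a z of 3, on the log2 scale and with additive effects removed, and 4 to 5 with each library alone. Distal calls (15) numbered 23 at a z of 1.5, 5 at a z of 3, 24 at a span of 0.1, 0 on the log2 scale, 1 with additive effects removed, and 19 to 24 with each library alone.

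The difference between constant end and distal stretches (0.16) was 0.047 with additive effects removed and turned to -0.097 after iterative correction, with 0.10 to 0.22 for each library alone. The difference between the proximal group and the first distal stretch (0.04 in each library alone, 0.040 to 0.040) was 0.059 and 0.033 at spans of 0.1 and 0.3, 0.22 on the log2 scale, 0.036 with additive effects removed, -0.0031 rescaled, 0.084 after iterative correction, 0.031 with at least 10 counts, 0.054 with borders moved inward and 0.058 as a difference of medians over the expected count. Within the domain minus within the proximal group (-0.09) was -0.12 and -0.064 at these spans, -0.14 on the log2 scale, -0.16 with additive effects removed, -0.38 rescaled, -0.45 after iterative correction, -0.12 with at least 10 counts, -0.079 with borders moved inward, -0.061 as medians, and -0.096 to -0.093 for each library alone. It stayed below 0 in all of these. Within the domain minus within the first distal stretch (-0.05) was 0.0014 on the log2 scale, 0.11 with additive effects removed, 0.26 rescaled and 0.014 as medians, all turned in direction. It was -0.11 after iterative correction, -0.039 with borders moved inward and -0.062 to -0.047 for each library alone. After iterative correction F346-R81 (-0.39), F346-R33 (-0.37) and F272-R33 (-0.12) fell below 0. The cause of these changes was not tested. Spans, thresholds and filters left the 19 named pairs in the direction they had, and the median of 80.5 and 73 counts per member limits what single pairs can show.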
